A study of Mus musculus with 11 samples.

Results

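The effect of tdT status on RNA levels was compared between 2 sorted epidermal populations of the mouse, CD49f+CD34+ cells and CD49f+CD34+SCA-1+ cells. For each gene the log2 fold change of tdT+ over tdTneg cells in CD49f+CD34+ cells was subtracted from that in CD49f+CD34+SCA-1+ cells, so that a negative value means a tdT effect that is lower in the SCA-1+ population. All 11 of the 11 libraries entered this contrast: 3 tdT+CD49f+CD34+, 3 tdTnegCD49f+CD34+, 3 tdT+CD49f+CD34+SCA-1+ and 2 tdTnegCD49f+CD34+SCA-1+. A gene was called at a Benjamini-Hochberg adjusted p under 0.05 over all 20307 genes tested and an absolute log2 value over 1, by edgeR's quasi-likelihood test.

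The CD49f+CD34+ cells were SCA-1 negative by their sort label. Every library came from the dorsal skin epidermis of male CD4Cre R26-tdT mice on a C57Bl6/N background, in which Cre is driven by a Cd4 promoter transgene and removes a stop in front of a tdTomato cassette at the R26 locus. A tdT+ cell is thus a cell in which Cre has acted at some time in that cell or its ancestors, whether or not the Cd4 promoter is active when it is sorted. Cells of 2 mice were pooled per library, and the mice were 29 weeks old in replicate 1 and 32 weeks old in replicates 2 and 3. All mice carried the same alleles, no treatment is named in the labels, and the groups were defined by sort. The tdTnegCD49f+CD34+SCA-1+ group held replicates 1 and 2 alone, so its mix of ages differed from that of the other groups. CD49f (integrin alpha 6) and CD34 mark the bulge, the part of the hair follicle that holds its resting stem cells. SCA-1, encoded by Ly6a, marks basal cells of the interfollicular epidermis (IFE) and the upper follicle, and also endothelial cells, which line blood vessels and carry CD34 and CD49f as well. The libraries held from 17409131 to 46542177 counts on genes, and the 3 tdTnegCD49f+CD34+ libraries, from 39364902 counts upward, were deeper than the other 8.

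The basal keratin Krt5 lay between 8213 and 16210 counts per 1000000 (CPM, of totals scaled with edgeR's TMM factors) in all 11 libraries. The 2 tdTnegCD49f+CD34+SCA-1+ libraries also held 30 endothelial genes at a summed 7921 and 8409 CPM, against 59.1 to 1962 CPM in the other 9, so RNA that goes against an epidermal label was present there. One row of the files lies outside the Ensembl genes and is not described in them. Per 1000000 counts of the unscaled totals, without TMM factors, it stood at 133 and 252 in tdT+CD49f+CD34+ replicates 1 and 3, at 224 to 307 in the 3 tdT+CD49f+CD34+SCA-1+ libraries, and at 2.54 to 4.89 in the 5 tdTneg libraries. In the library labelled replicate 2 of tdT+CD49f+CD34+ it stood at 2.05, below all 5 tdTneg libraries. That library goes against the others of its label in this row, so results are also given without it. The 6 CD49f+CD34+ libraries divided across tdT status. Over the genes tested, log2 CPM correlated at 0.925 to 0.932 (Pearson's r, genes within a library not being independent) among tdT+ replicates 1 and 2 and tdTneg replicate 2, at 0.939 to 0.988 among tdT+ replicate 3 and tdTneg replicates 1 and 3, and at 0.847 to 0.901 between these sets. The part of this spread in the few calls of that population was not tested.

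Of the 20307 genes, 79 (0.389%) were called for the difference between the populations. In 77 of these (0.379% of genes tested) the value was lower, and in 2 (0.00985%) it was higher. At an unadjusted p under 0.05 the difference was lower for 1549 genes (7.63%) and higher for 968 (4.77%). Within the populations, 470 genes (2.31%) were called between tdT+ and tdTneg CD49f+CD34+SCA-1+ cells, 419 lower (2.06%) and 51 higher (0.251%) in tdT+ cells, and 2 genes (0.00985%), both higher, between tdT+ and tdTneg CD49f+CD34+ cells. For a median gene the 95% confidence interval of the difference reached 1.40 log2 units to either side.

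The 77 lower genes were lower in tdT+ than in tdTneg cells of the SCA-1+ population. All 77 had a negative tdT effect there, with a median log2 fold change of -2.97 against 0.04 over all genes tested. Of the 77, 73 were also called in that comparison alone. The genes were called on these same libraries, so this effect largely follows from the call. The same holds for the lack of overlap given below, and neither is further evidence. The median effect of the 77 in CD49f+CD34+ cells was 0.16 (all genes, -0.03), negative in 32 and positive in 45, and none was called there. The 95% confidence interval of the CD49f+CD34+ effect lay within 1 log2 unit of 0 for 36 of the 77 and included 0 for 55. For the remaining 22 it excluded 0 without adjustment, with a positive effect in 15 genes and a negative one in 7 (4.56% and 3.86% of all genes had such a p), so a tdT effect in 1 population alone is not what each of these genes showed. The tdT+ and tdTneg libraries of the SCA-1+ population did not overlap in any of the 77 (non-overlap in 33.0% of all genes tested). All 77 are protein-coding.

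**Figure D1:**
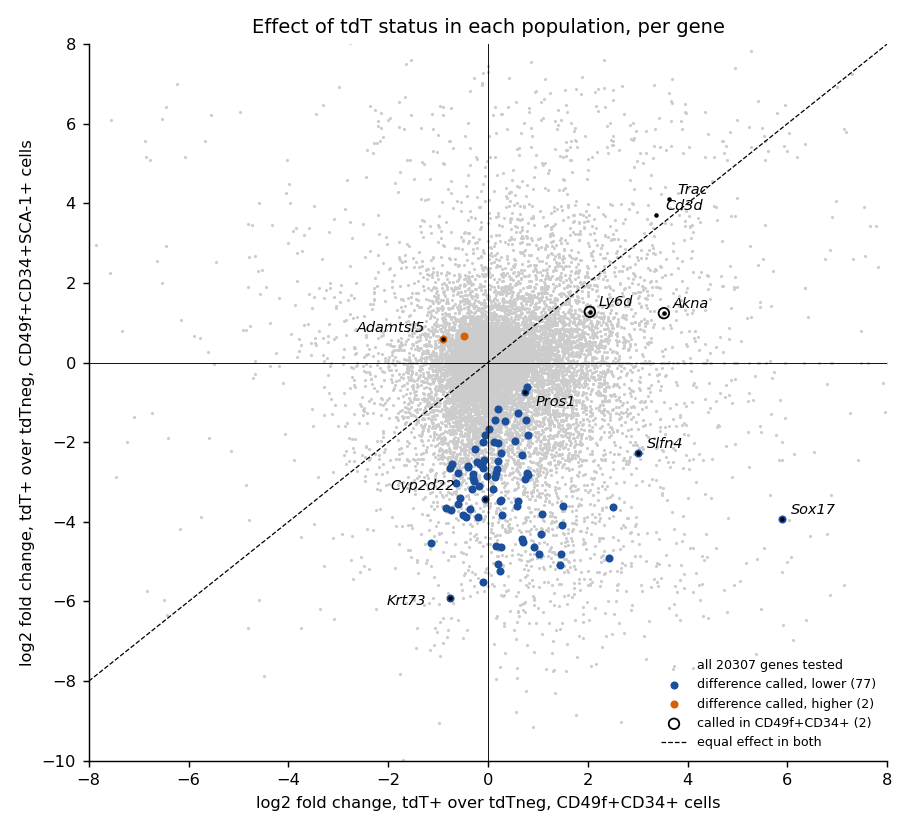
Each point is a gene, with the log2 fold change of tdT+ over tdTneg cells in CD49f+CD34+ cells on the horizontal axis and in CD49f+CD34+SCA-1+ cells on the vertical axis. Grey points are the genes tested (16 lie outside the axes), blue points the 77 genes called lower for the difference, orange points the 2 called higher, and circles the 2 genes called in CD49f+CD34+ cells. The blue points lie below the dashed line of equal effect, most of them near 0 on the horizontal axis and between -2 and -6 on the vertical axis.

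Promoter sequences are shown for 4 of the lower genes, which stand for 2 of the level patterns described next. None is shown for the genes whose levels overlapped. Cd34 and Gfra1 were highest in the CD49f+CD34+ libraries, and Nrp2 and Fzd4 were highest in tdTnegCD49f+CD34+SCA-1+ libraries. Each run holds 250 bases before and 50 bases after a start from RefSeq on GRCm38.p6, 5′ to 3′ on the gene's strand. That start can differ from the gene span of the annotation used for the counts. The Gfra1 run lies wholly inside the span given below for that gene. Matches to the TCF letters CTTTGNT on either strand are in capitals.
Cd34 promoter, chr1:194938571-194938870, plus strand: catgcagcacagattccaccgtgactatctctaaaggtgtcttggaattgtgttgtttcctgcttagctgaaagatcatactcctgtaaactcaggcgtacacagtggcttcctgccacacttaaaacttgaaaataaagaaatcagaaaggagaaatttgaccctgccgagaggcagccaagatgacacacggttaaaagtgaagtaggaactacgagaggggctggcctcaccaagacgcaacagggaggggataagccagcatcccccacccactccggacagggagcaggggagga
Gfra1 promoter, chr19:58455349-58455648, minus strand: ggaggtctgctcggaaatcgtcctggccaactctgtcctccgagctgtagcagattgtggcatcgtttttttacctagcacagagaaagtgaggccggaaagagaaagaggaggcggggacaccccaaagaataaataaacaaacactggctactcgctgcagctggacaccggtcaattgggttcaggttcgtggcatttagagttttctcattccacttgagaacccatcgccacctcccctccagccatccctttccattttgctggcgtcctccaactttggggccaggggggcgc
Nrp2 promoter, chr1:62703067-62703366, plus strand: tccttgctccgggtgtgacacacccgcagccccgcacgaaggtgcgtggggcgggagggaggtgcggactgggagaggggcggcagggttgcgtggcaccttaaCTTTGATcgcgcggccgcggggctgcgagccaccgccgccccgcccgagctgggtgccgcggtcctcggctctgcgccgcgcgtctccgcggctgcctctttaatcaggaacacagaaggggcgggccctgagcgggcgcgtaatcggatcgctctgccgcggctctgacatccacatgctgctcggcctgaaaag
Fzd4 promoter, chr7:89404116-89404415, plus strand: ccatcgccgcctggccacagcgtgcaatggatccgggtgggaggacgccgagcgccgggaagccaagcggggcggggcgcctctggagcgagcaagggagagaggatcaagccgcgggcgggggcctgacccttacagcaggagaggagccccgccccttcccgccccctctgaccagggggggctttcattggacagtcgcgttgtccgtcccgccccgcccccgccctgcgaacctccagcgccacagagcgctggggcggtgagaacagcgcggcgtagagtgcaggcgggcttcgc
The Nrp2 run holds 1 match and the other 3 runs hold none. The Nrp2 and Fzd4 runs were 70.7% and 72.7% G and C, with 37 and 32 CG steps, against 50% and 54%, with 7 and 12 CG steps, in Cd34 and Gfra1. RefSeq promoters were matched for 57 of the 77 genes, of which the TCF letters, a core that TCF factors of the Wnt pathway are known to bind, were present in 14 (24.6%, against 20.9% of all 27025 promoters matched by symbol). The ETS letters CCGGAAG were in 3 of the 57 (5.26%, against 9.93%) and the SOX letters ATTGTT in 4 (7.02%, against 12.2%), each on either strand. Over the 57 promoters the median share of G and C was 62.0%, near the 60.0% of 12142 protein-coding genes tested. The 27025 promoters behind the motif shares had a median of 52.75%, with a median of 7 CG steps against 19 in the 57. The motif shares thus compare sets of unlike composition. These matches describe letters in the window and were not tested.

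Levels in the 4 groups divided the 77 genes by where the SCA-1+ libraries lay relative to the 6 CD49f+CD34+ libraries, a division made after the values were seen. In 50 genes both tdTnegCD49f+CD34+SCA-1+ libraries lay above all 6 CD49f+CD34+ libraries (12.4% of all genes tested), in 17 they overlapped them, and in 10 they lay below (11.5%). The 3 tdT+CD49f+CD34+SCA-1+ libraries lay below all 6 CD49f+CD34+ libraries in 57 of the 77 (11.3% of all genes) and above them in none. The lower tdT effect of the SCA-1+ population was thus, for most of these genes, a level below that of the CD49f+CD34+ cells as well as below that of the tdTneg cells of the same gate.

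**Figure D2:**
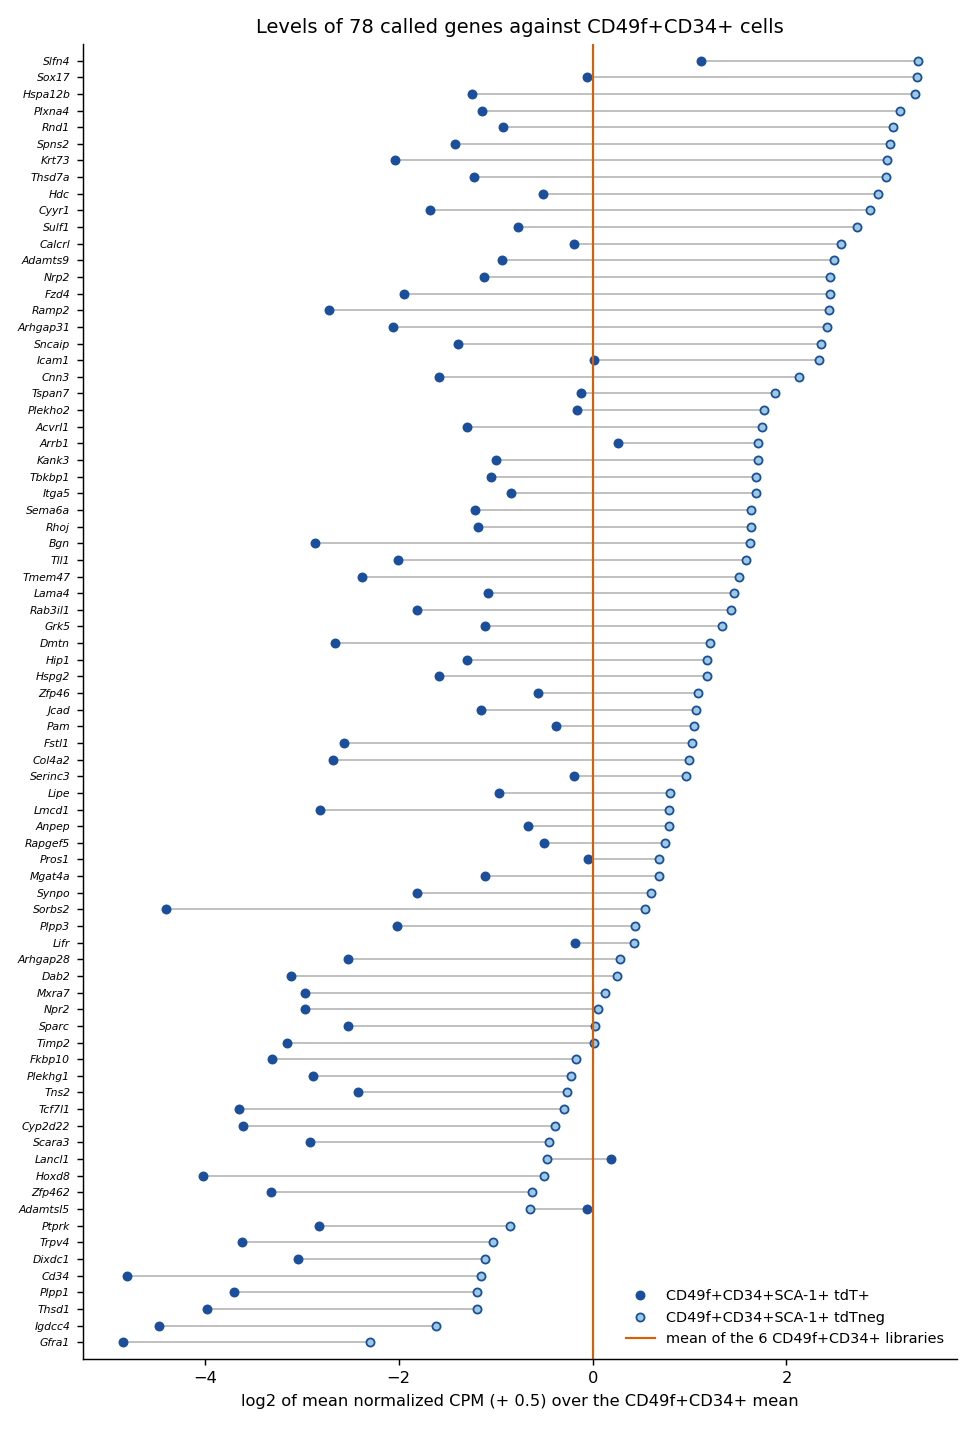
For 78 of the 79 called genes, the log2 of the mean normalized CPM (plus 0.5) of tdT+ (filled) and tdTneg (open) CD49f+CD34+SCA-1+ libraries is drawn relative to the mean of the 6 CD49f+CD34+ libraries, the orange line at 0. From Slfn4 at the top to Gfra1 at the bottom the open points move from above the line to below it, while the filled points of nearly all lower genes lie at or left of the line.

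Genes of the hair follicle stem cell were found among those that the CD49f+CD34+ libraries shared or held at the highest level. Cd34 itself (chromosome 1, 194938819 to 194961279), whose product was 1 of the sort antigens, stood at 468, 735 and 842 CPM in tdT+CD49f+CD34+ and at 864, 638 and 1130.1 CPM in tdTnegCD49f+CD34+ libraries. It stood at 320 and 383 CPM in tdTnegCD49f+CD34+SCA-1+ libraries and at only 24.3, 35.7 and 22.3 CPM in tdT+CD49f+CD34+SCA-1+ libraries. Its RNA thus goes against what the CD34+ gate of these last cells would give, and neither SCA-1+ group overlapped with the other or with the CD49f+CD34+ libraries. The difference between the populations was -3.31 ± 0.43 (SE; 95% confidence interval -4.26 to -2.37, edgeR adjusted p = 0.0132), made of a tdT effect of -3.68 in CD49f+CD34+SCA-1+ and -0.36 in CD49f+CD34+ cells. The call was lost on omission of replicate 1 of tdTnegCD49f+CD34+, of replicate 1 of tdT+CD49f+CD34+SCA-1+ or of either tdTnegCD49f+CD34+SCA-1+ library, where the value stayed between -3.43 and -3.22. Endothelial cells also carry CD34. The endothelial list summed to 7921 and 8409 CPM in tdTneg and to 195 to 327 CPM in tdT+ CD49f+CD34+SCA-1+ libraries. The part of such cells in the Cd34 values was not tested.

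Tcf7l1, a transcriptional repressor of Wnt targets that keeps follicle stem cells undifferentiated, stood at 25.01 to 47.4 CPM in tdT+CD49f+CD34+, 49.5 to 63.2 CPM in tdTnegCD49f+CD34+ and 31.5 and 44.8 CPM in tdTnegCD49f+CD34+SCA-1+ libraries. In tdT+CD49f+CD34+SCA-1+ libraries it fell to 3.04, 3.29 and 3.51 CPM, apart from the other 8 libraries (difference -2.94 ± 0.36 (SE), edgeR adjusted p = 0.00988). Gfra1, a receptor for the growth factor GDNF (chromosome 19, 58235604 to 58455909), held 164 to 239 CPM in all 6 CD49f+CD34+ libraries. It held 30.8 and 51.6 CPM in tdTneg and 6.13 to 7.33 CPM in tdT+ CD49f+CD34+SCA-1+ libraries (difference -2.54 ± 0.30 (SE), edgeR adjusted p = 0.00988). Cyp2d22, a cytochrome P450 (chromosome 15, 82370527 to 82380260), had the smallest p of all genes, with 32.3 to 48.9 CPM in the CD49f+CD34+ libraries, 33.6 and 29.6 CPM in tdTnegCD49f+CD34+SCA-1+ and 3.09, 3.12 and 2.58 CPM in tdT+CD49f+CD34+SCA-1+ libraries. Its difference of -3.36 ± 0.27 (SE, edgeR adjusted p = 0.00468) was made of -3.43 in the SCA-1+ population and -0.07 in CD49f+CD34+ cells.

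The same shape, with tdT+ and tdTneg CD49f+CD34+ libraries that overlapped, was seen for the homeobox gene Hoxd8 (difference -3.68), the lipid phosphatase gene Plpp1 (-2.85) and the cytoskeletal adaptor gene Sorbs2 (-5.48), each with an edgeR adjusted p of 0.00988. Sparc, which encodes a matrix glycoprotein, differed by -1.82 (edgeR adjusted p = 0.00988) and was lower in tdT+ cells of both populations. It stood at 254 to 303 CPM in tdT+ and 436 to 468 CPM in tdTneg CD49f+CD34+ libraries, which did not overlap, with effects of -0.73 there and -2.55 in the SCA-1+ population. Trpv4, a calcium-permeable cation channel, had effects of -0.76 and -2.64 in the same order and was likewise lower in both. It was picked after its values were seen.

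Over the list of 27 bulge and outer root sheath stem cell genes, Cd34 and Tcf7l1 were called for the difference, and 14 were lower at an unadjusted p under 0.05 (7.63% of all genes). The median difference was -1.34 (all genes, 0.05), made of -1.45 in the SCA-1+ and -0.25 in the CD49f+CD34+ population. Without tdTnegCD49f+CD34+SCA-1+ replicate 2 the SCA-1+ median was -0.94, and over single omissions the CD49f+CD34+ median ran from -0.45 to -0.14. In the SCA-1+ population 10 of the 27 were called lower in tdT+ cells (2.06% of all genes) and 1 higher (0.251%), among them Lhx2 (-2.69) and Lgr5 (-2.31), a transcription factor and a receptor that mark follicle stem cells, and Sox21, which rose by 1.35. The 10 became 5 without tdT+CD49f+CD34+SCA-1+ replicate 1 or 3, 4 without tdTnegCD49f+CD34+SCA-1+ replicate 2 and 17 with DESeq2, and the call of Sox21 was lost without tdT+ replicate 2, tdT+ replicate 3 or tdTneg replicate 2 of that population. The difference for Lgr5 was -1.30 with an adjusted p of 0.377 and for Lhx2 -2.14 with an adjusted p of 0.104, so neither was shown to differ between the populations. Krt15, a bulge keratin, did not pass in either population (0.20 and -0.49). For the difference DESeq2 called 7 of the 27 lower, and limma voom 4 lower and 1 higher. Without tdTnegCD49f+CD34+SCA-1+ replicate 2 none of the 27 was called for the difference, 4 were lower at an unadjusted p under 0.05 and the median difference was -0.70. The 14 became 8 without tdT+CD49f+CD34+ replicate 3 and 9 without tdTnegCD49f+CD34+ replicate 2 or tdT+CD49f+CD34+SCA-1+ replicate 1. Tcf7l1 was the only member called without replicate 1 of tdTnegCD49f+CD34+ or of either SCA-1+ group.

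Other lower genes were at their highest in tdTnegCD49f+CD34+SCA-1+ cells. Hip1, an endocytic adaptor, stood at 141 and 155 CPM there, at 55.8 to 71.7 CPM in the 6 CD49f+CD34+ libraries and at 21.8 to 29.0 CPM in tdT+CD49f+CD34+SCA-1+ cells (difference -2.28 ± 0.20 (SE), edgeR adjusted p = 0.00509). Arhgap31, a GTPase activator for Cdc42 and Rac1, stood at 148 and 132 CPM in tdTnegCD49f+CD34+SCA-1+ libraries and at 4.54 to 7.17 CPM in their tdT+ counterparts, with 14.7 to 38.1 CPM in CD49f+CD34+ libraries (difference -4.76 ± 0.47 (SE), edgeR adjusted p = 0.00855). Fzd4, a Wnt and norrin receptor, was the one called member of 47 Wnt pathway genes tested (0.379% of all genes were called lower). It held 61.5 and 64.7 CPM in tdTnegCD49f+CD34+SCA-1+, 1.87 to 2.95 CPM in tdT+CD49f+CD34+SCA-1+ and 5.40 to 15.9 CPM in CD49f+CD34+ libraries (difference -4.91 ± 0.59 (SE), edgeR adjusted p = 0.00988). Over the 47 genes the median difference was -0.17, with 4 lower (7.63% of all genes) and 3 higher (4.77%) at an unadjusted p under 0.05.

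**Figure D3:**
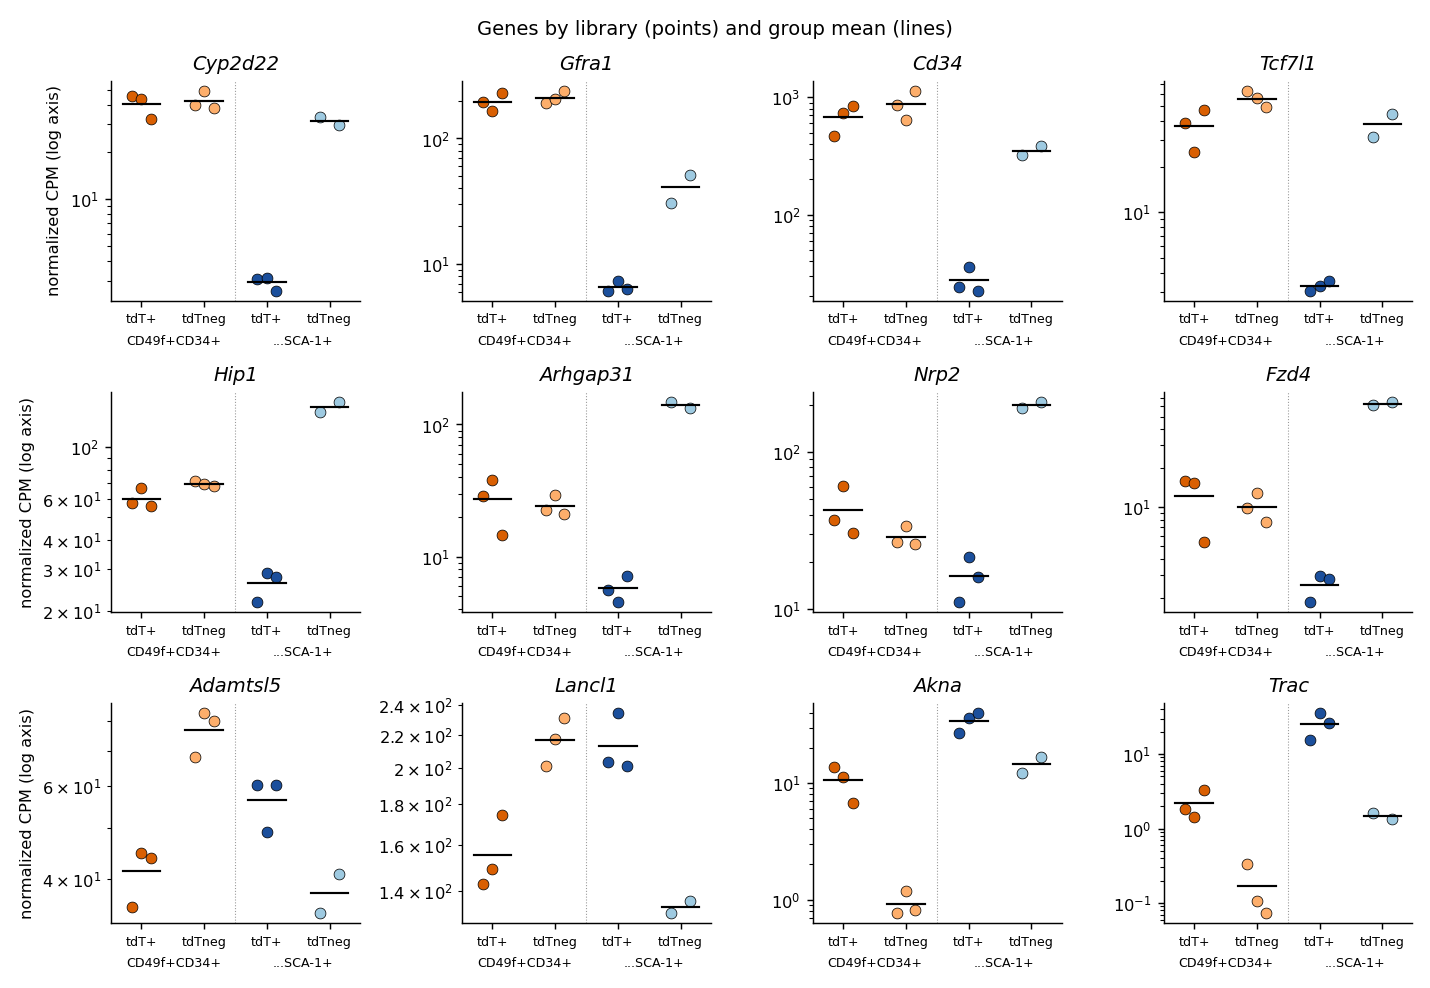
Normalized CPM on a log axis for 12 genes, with a point per library and a line at each group mean, for tdT+ and tdTneg CD49f+CD34+ (left pair) and CD49f+CD34+SCA-1+ libraries (right pair). In the upper and middle rows the dark blue tdT+CD49f+CD34+SCA-1+ points lie below all others, while in the lower row Adamtsl5 and Lancl1 cross between the populations and Akna and Trac are higher in tdT+ cells of both.

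Guidance receptors and ligands gave 3 called members of 65 tested semaphorin, plexin, ephrin, slit and netrin genes (0.379% of all genes were called lower), with 16 lower at an unadjusted p under 0.05 (7.63% of all genes) and a median difference of -0.14. Nrp2, a co-receptor for semaphorins and VEGF-C, stood at 189 and 207 CPM in tdTnegCD49f+CD34+SCA-1+ against 11.1, 21.5 and 16.1 CPM in tdT+CD49f+CD34+SCA-1+ libraries, and at 25.8 to 61.1 CPM in CD49f+CD34+ libraries. Its difference was -4.19 ± 0.43 (SE, edgeR adjusted p = 0.00855). Sema6a, a transmembrane semaphorin (-3.67), and Plxna4, a semaphorin receptor subunit (-5.84), were the other two, and Sema6a went in opposite ways in the populations, at -2.92 in CD49f+CD34+SCA-1+ cells and 0.75, unadjusted p = 0.0183, in CD49f+CD34+ cells.

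Of 44 BMP and TGF-beta pathway genes tested, 2 were called (0.379% of all genes), with 8 lower at an unadjusted p under 0.05 (7.63% of all genes, a share that the counts of this kind in the lists that follow are to be read against) and a median of -0.33. They were Acvrl1, a type I receptor for BMP9 and BMP10 (-2.92), and Fstl1, a secreted modulator of BMP signals (-2.81). Basement membrane and adhesion genes were called singly: Col4a2 among 39 collagen genes (-2.96, list median -1.73, 15 lower and 2 higher at an unadjusted p under 0.05), Lama4 among 11 laminin genes (-2.22, median -1.08) and Itga5, the alpha chain of the main fibronectin receptor, among 31 integrin genes (-2.39, median 0.18). Of 42 ADAMTS and matrix metalloprotease genes 1 was called lower (Adamts9, -4.07) and 1 higher (Adamtsl5), of 47 keratin genes Krt73, a keratin of the inner root sheath (-5.15), and of 28 Hox genes Hoxd8. In the lists of Notch pathway (21 tested), Hedgehog pathway (15), solute carrier (315) and cadherin and protocadherin genes (68) none was called for the difference, and 1, 2, 21 and 11 genes in that order were lower, and 1, 0, 20 and 0 higher (4.77% of all genes), at an unadjusted p under 0.05.

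Endothelial markers moved with these genes. Over 30 endothelial genes tested, 28 had a lower difference at an unadjusted p under 0.05 (7.63% of all genes), and 1, the transcription factor gene Sox17, was called (0.379%). DESeq2 called 12 of the 30 lower, limma voom 20 and the fit with at least 1 count in any library 27. The count was 21 without tdT+CD49f+CD34+ replicate 3, and 0 with the replicate block or without any 1 of the 5 SCA-1+ libraries or of tdTnegCD49f+CD34+ replicates 1 and 3. Their median difference was -7.14, made of -5.00 in the SCA-1+ population, where 5 were called lower (2.06% of all genes; 12, 24 and 27 under the same 3 alternatives, 20 without tdT+CD49f+CD34+ replicate 2 or 3, 2 without tdTnegCD49f+CD34+ replicate 1 or 3 and 0 without any 1 of the SCA-1+ libraries), and 1.81 in CD49f+CD34+ cells. Their summed level was 7921 and 8409 CPM in the 2 tdTnegCD49f+CD34+SCA-1+ libraries and 195 to 327 CPM in the 3 tdT+CD49f+CD34+SCA-1+ libraries. In the CD49f+CD34+ population it was 120 to 384 CPM in tdTneg libraries and 363 and 59.1 CPM in tdT+ replicates 1 and 3, but 1962 CPM in the library labelled replicate 2. Both tdTnegCD49f+CD34+SCA-1+ libraries lay above the other 9 in 27 of the 30 (4.78% of all genes tested), and likewise in 50 of the 77 lower genes. Their part in the lower tdT effects was not tested, and in these bulk libraries fewer cells of a type and less RNA per cell cannot be told apart. No endothelial gene was at 0 in every tdTnegCD49f+CD34+SCA-1+ or CD49f+CD34+ library, and 2 of the 30 were at 0 in every tdT+CD49f+CD34+SCA-1+ library.

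Endothelial genes varied widely between the tdT+CD49f+CD34+ libraries. Pecam1, an endothelial adhesion molecule, stood at 688 and 728 CPM in tdTnegCD49f+CD34+SCA-1+ and at 13.3, 32.9 and 25.3 CPM in tdT+CD49f+CD34+SCA-1+ libraries, but at 5.21, 175 and 1.05 CPM in tdT+CD49f+CD34+ replicates 1, 2 and 3 and at 7.98 to 19.6 CPM in tdTnegCD49f+CD34+ libraries. Its difference of -7.15 had an edgeR adjusted p of 0.175. Egfl7, a matrix protein secreted by endothelium, fell by 5.34 in the SCA-1+ population (adjusted p = 0.0158), with a difference of -6.12 and an adjusted p of 0.065. Pecam1 and Egfl7 were named here after their values were seen. With the library labelled replicate 2 of tdT+CD49f+CD34+ left out, the median difference over the 30 genes was -4.22 and the median effect in CD49f+CD34+ cells -0.50, a change of sign, while 26 genes had a lower difference at an unadjusted p under 0.05. In that setting 63 genes in all were called for the difference, among them 50 of the 77.

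Sox17 had the lowest difference of all called genes, -9.81 ± 1.56 (SE, edgeR adjusted p = 0.033). It stood at 14.8 and 16.7 CPM in tdTnegCD49f+CD34+SCA-1+, 0.511 to 1.75 CPM in tdT+CD49f+CD34+SCA-1+ and 0.661 to 5.03 CPM in tdT+CD49f+CD34+ libraries, the highest of these in the library labelled replicate 2. The tdTnegCD49f+CD34+ libraries held 1, 3 and 0 counts, so that its effect in that population, 5.88 as fitted, rests on 4 counts and has no firm size. Several other called genes are best known from vascular endothelium, among them Acvrl1, Fzd4, Ramp2 and Calcrl (a receptor pair for adrenomedullin, differences -5.41 and -3.56), Spns2, a sphingosine 1-phosphate exporter (-5.56), and Icam1, an adhesion molecule for leukocytes (-3.00). These were picked after their values were seen, and no list held them together.

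Both genes with a higher difference moved in opposite ways in the populations. Adamtsl5, a secreted matrix protein gene of the ADAMTS-like family (chromosome 10, 80339110 to 80348412), stood at 35.4, 44.8 and 43.8 CPM in tdT+ and 68.2, 82.7 and 79.8 CPM in tdTneg CD49f+CD34+ libraries. In CD49f+CD34+SCA-1+ libraries it stood at 60.3, 49.1 and 60.4 CPM in tdT+ and 34.4 and 40.8 CPM in tdTneg libraries. The difference was 1.48 ± 0.23 (SE, edgeR adjusted p = 0.0287), made of 0.59 and -0.90, neither of which passed in its own population. The call held in 4 of 11 omissions of 1 library, with values from 1.38 to 1.58 and adjusted p-values up to 0.170. Lancl1, which encodes a glutathione-binding LanC-like protein, went from 201 to 231 CPM in tdTneg to 143 to 175 CPM in tdT+ CD49f+CD34+ libraries, and from 131 and 136 CPM in tdTneg to 201 to 234 CPM in tdT+CD49f+CD34+SCA-1+ libraries. Its difference was 1.15 ± 0.19 (SE, edgeR adjusted p = 0.039), made of 0.67 and -0.48, and the call held in 1 of 11 such omissions, with values from 0.99 to 1.24.

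Most calls of the SCA-1+ population were not shown to be particular to it. Of its 470 called genes, 397 did not pass the test of the difference, 346 of them lower and 51 higher in tdT+ cells. Among the 51 higher genes the tdT effect in CD49f+CD34+ cells was also positive in 45, with a median of 1.36, where 47.3% of all genes had a positive effect. Among the 346 lower genes it was also negative in 236, with a median of -0.26, where 52.6% of all genes had a negative effect. For 342 of the 397 the difference itself had an unadjusted p under 0.05, so a lack of a call does not show equal effects.

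The T cell list had tdT effects with close medians in both populations, while its members varied. Trac, the constant region of the T cell receptor alpha chain, stood at 15.5, 35.3 and 25.9 CPM in tdT+ and 1.61 and 1.34 CPM in tdTneg CD49f+CD34+SCA-1+ libraries. In CD49f+CD34+ libraries it stood at 1.81, 1.45 and 3.25 CPM in tdT+ and 0.331, 0.106 and 0.0732 CPM in tdTneg cells, and neither pair of groups overlapped. The effects were 4.11 (edgeR adjusted p = 0.0154) and 3.62 (adjusted p = 0.113), and their difference was 0.49 with a 95% confidence interval from -1.47 to 2.45. Cd3d, a subunit of the T cell receptor complex, had effects of 3.70 and 3.37 and a difference of 0.33 (95% confidence interval -1.52 to 2.19), so that either population could hold the larger effect of these genes. Trbc2, a constant region of the T cell receptor beta chain, whose reads may be shared with a near-identical copy, had the smallest p of the list for the difference. It stood at 19.5, 56.9 and 36.7 CPM in tdT+ and 9.46 and 7.29 CPM in tdTneg CD49f+CD34+SCA-1+ libraries, but at 3.31 to 6.34 CPM in tdT+ and 6.74 to 8.68 CPM in tdTneg CD49f+CD34+ libraries. Its effects were 2.17 (called) and -0.57, and the difference of 2.74 (95% confidence interval 1.41 to 4.06) had an edgeR adjusted p of 0.0881. Sit1, a T cell adaptor, had effects of 5.39 (called) and 0.62, and Cd6, a T cell co-receptor, 4.75 and 1.19, neither with a called difference (adjusted p = 0.202 and 0.323). Over 25 T cell genes tested, 10 were called higher in the SCA-1+ population (0.251% of all genes) and none in the CD49f+CD34+ population (0.00985%), with medians of 2.83 and 2.90. None was called for the difference, while 5 were higher (4.77% of all genes) and 0 lower (7.63%) at an unadjusted p under 0.05, with a median of 0.33 that turned to -0.25 without tdT+CD49f+CD34+SCA-1+ replicate 2. The 10 calls of the SCA-1+ population became 3 without tdT+ replicate 2 or 3, 1 and 0 without tdTneg replicates 1 and 2, and 6 without tdTnegCD49f+CD34+ replicate 1. DESeq2 called 20 in the SCA-1+ population, 15 in CD49f+CD34+ cells and 2 for the difference. Their summed level was 771 to 1797 CPM against 250 and 255 CPM in tdT+ and tdTneg CD49f+CD34+SCA-1+ libraries, and 130 to 156 CPM against 44.5 to 59.0 CPM in CD49f+CD34+ libraries.

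Cd4, the gene whose promoter drives Cre, was low in all libraries: 0.877 to 4.64 CPM in tdT+ and 0.126 and 0.949 CPM in tdTneg CD49f+CD34+SCA-1+ cells, and 0.0536 to 1.21 against 0.227 to 0.661 CPM in CD49f+CD34+ cells. Its difference of 1.53 had a 95% confidence interval from -2.12 to 5.18, which includes 0. Xcl1 (0.79), a chemokine made by lymphocytes, Sit1 (4.77) and B3galt5 (4.60), a galactosyltransferase, were the remaining genes with the largest called rises in CD49f+CD34+SCA-1+ cells, and their differences had edgeR adjusted p-values of 0.791, 0.202 and 0.0919. B3galt5 stood at 7.73, 33.3 and 13.3 CPM in tdT+CD49f+CD34+SCA-1+ libraries and at 0.22 to 1.59 CPM in the other 8.

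In CD49f+CD34+ cells the 2 called genes were Akna and Ly6d. Neither was called there with age as a term or in the fit of the CD49f+CD34+ libraries alone. Akna, an AT-hook protein of the centrosome, stood at 13.7, 11.3 and 6.78 CPM in tdT+ against 0.765, 1.19 and 0.805 CPM in tdTneg CD49f+CD34+ libraries, an effect of 3.52 (edgeR adjusted p = 0.0252). In CD49f+CD34+SCA-1+ libraries it stood at 26.9 to 39.7 CPM in tdT+ and 12.2 and 16.8 CPM in tdTneg cells, an effect of 1.24 (adjusted p = 0.124). The difference of -2.28 (95% confidence interval -3.32 to -1.25) had an adjusted p of 0.0754, and it passed with DESeq2 (-2.41), with limma voom (-2.62) and with either other filter on low counts (-2.36 and -2.43). Ly6d, a surface protein of the same family as SCA-1, was called in both populations, at 2.04 (adjusted p = 0.0415) and 1.28 (adjusted p = 0.0312), with a difference of -0.76 (adjusted p = 0.381). By edgeR with the main filter no gene was therefore shown to have a tdT effect in CD49f+CD34+ cells alone.

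Sort genes other than Cd34, and differentiation genes, did not pass the test of the difference. Ly6a, which encodes SCA-1, stood at 27.6, 59.2 and 9.64 CPM in tdT+CD49f+CD34+ and 5.74, 2.46 and 2.90 CPM in tdTnegCD49f+CD34+ libraries, and at 153 to 294 and 172 to 187 CPM in tdT+ and tdTneg CD49f+CD34+SCA-1+ libraries. The 6 CD49f+CD34+ libraries lay below the 5 of the SCA-1+ gate, as labelled, and the difference was -2.95 with an edgeR adjusted p of 0.181 (it passed with DESeq2, at -3.07, and with limma voom, at -3.15). Itga6, which encodes CD49f, had a difference of 0.43 (95% confidence interval -0.20 to 1.05). Over 21 suprabasal IFE genes tested, which build the outer layers of the epidermis, the median difference was -1.36, made of 0.12 in the SCA-1+ and 1.80 in the CD49f+CD34+ population. None was called, and 6 were lower (7.63% of all genes) at an unadjusted p under 0.05, while 12 were higher in tdT+CD49f+CD34+ cells (4.56%). DESeq2 called 4 lower for the difference and 8 higher in CD49f+CD34+ cells. Sprr1a, a cornified envelope precursor, had the smallest p of them, with effects of -0.51 and 1.12 and a difference of -1.64 (adjusted p = 0.106). Without tdTnegCD49f+CD34+SCA-1+ replicate 1 the list's median difference was -0.51, and without tdTnegCD49f+CD34+ replicate 1 it was -2.24, with 14 lower at an unadjusted p under 0.05.

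Among 13 Langerhans cell and MHC class II genes, 4 were lower at an unadjusted p under 0.05 (7.63% of all genes) and none was called for the difference by edgeR, with medians of -0.80 in the SCA-1+ population, 1.80 in CD49f+CD34+ cells and -2.60 for the difference. The summed level of this list was 94.8 to 489 CPM in tdT+ and 41.1 to 142 CPM in tdTneg CD49f+CD34+ libraries, with the maximum in the library labelled replicate 2, without which the median effect in CD49f+CD34+ cells was 0.70. DESeq2, limma voom and the fit with at least 1 count in any library each called 3 of the 13 lower for the difference, and the 4 became 7 without tdT+CD49f+CD34+ replicate 3 and 10 without tdTnegCD49f+CD34+ replicate 2. Cytosolic ribosomal protein genes ran the other way: of 76 tested, 30 had a higher difference at an unadjusted p under 0.05 (4.77% of all genes) and none a lower one, with a median of 0.82 made of 0.67 and -0.16. None was called for the difference by edgeR, and 1 was called higher by each of DESeq2, limma voom and the fit with at least 1 count. Without tdTnegCD49f+CD34+ replicate 3 the list's median effect in CD49f+CD34+ cells turned to 0.06. Without tdT+CD49f+CD34+SCA-1+ replicate 2 the SCA-1+ median was 0.44. Of 23 S phase and mitosis genes none had a difference with an unadjusted p under 0.05. All 23 differences were positive, with a median of 0.35, and all 23 effects in CD49f+CD34+ cells were negative, with a median of -0.41 and 3 at an unadjusted p under 0.05 (3.86% of all genes). The secondary hair germ, inner bulge and companion layer, basal IFE, upper follicle, sebaceous gland, pericyte, fibroblast, melanocyte, Schwann cell, skeletal muscle, immediate early and interferon response lists held no gene called for the difference by edgeR. In the SCA-1+ population 2 of 9 secondary hair germ genes and 1 of 11 pericyte genes tested were called lower (2.06% of all genes). There 1 of 16 basal IFE genes was called higher (0.251% of all genes), and 1 of the 16 was called higher in CD49f+CD34+ cells (0.00985%).

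**Figure D4:**
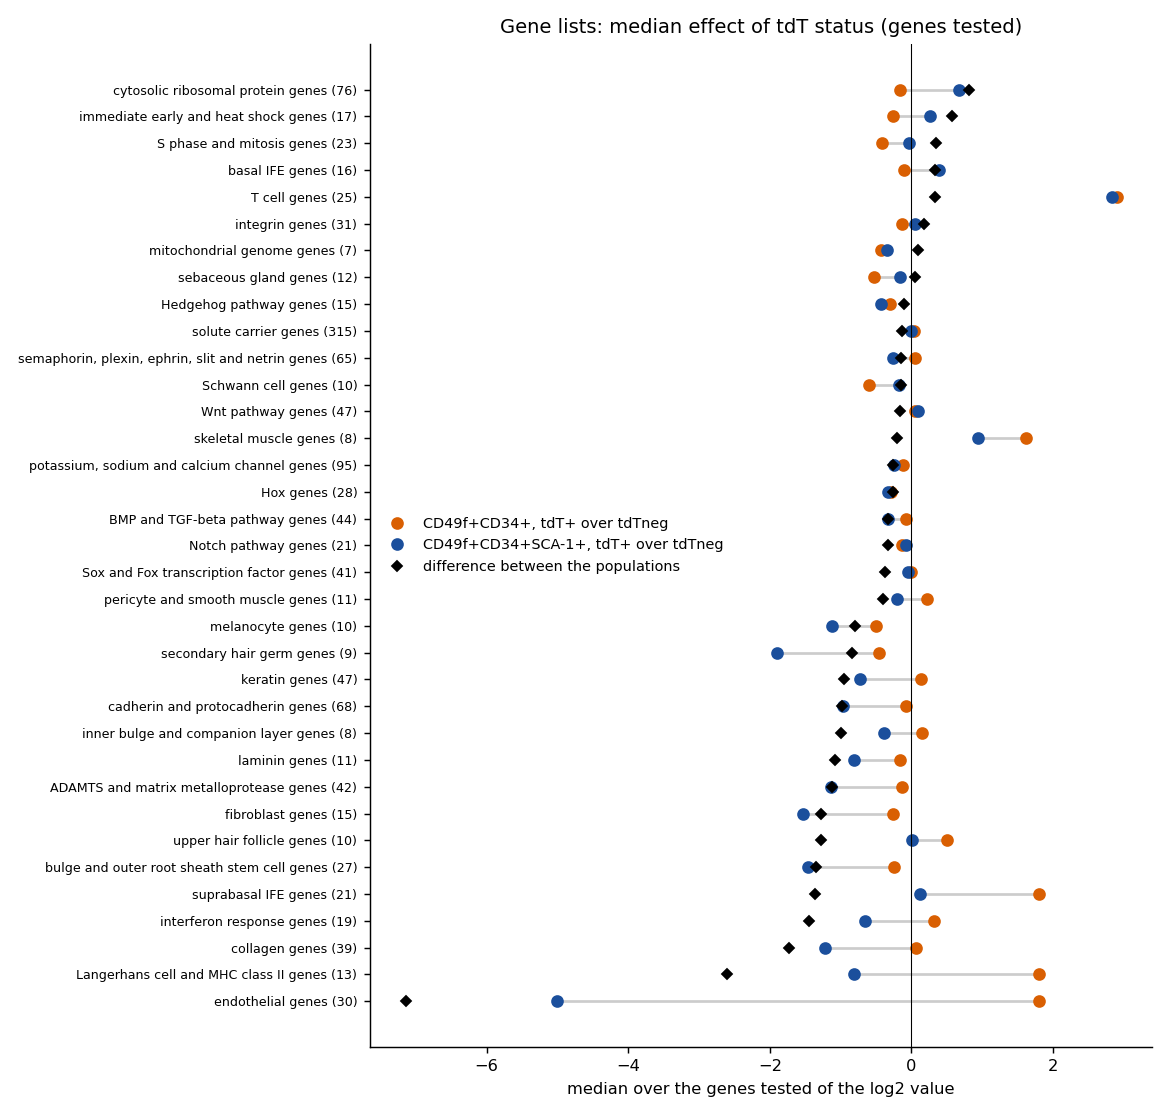
For each of 35 gene lists (number of genes tested in brackets), the median log2 effect of tdT status in CD49f+CD34+ cells (orange), in CD49f+CD34+SCA-1+ cells (blue) and the median difference between the populations (diamond). The endothelial list lies farthest to the left, at -7.14 for the difference, and the T cell list farthest to the right in both populations, at 2.83 and 2.90, with a median difference of 0.33.

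The number of genes called changed with single libraries. Without tdTnegCD49f+CD34+SCA-1+ replicate 2, which leaves 1 library in that group that is then assumed to vary like the others, Cyp2d22 alone stayed called (1 gene), and without replicate 1 there were 20. Omission of replicate 1 or 3 of tdTnegCD49f+CD34+ left 23 or 31, omission of replicate 1 or 3 of tdT+CD49f+CD34+SCA-1+ left 36 or 47, and omission of replicate 3 of tdT+CD49f+CD34+ gave 376. In every one of the 11 omissions all 77 values stayed negative, each with an unadjusted p under 0.05, and their median lay between -3.14 and -2.89.

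**Figure D5:**
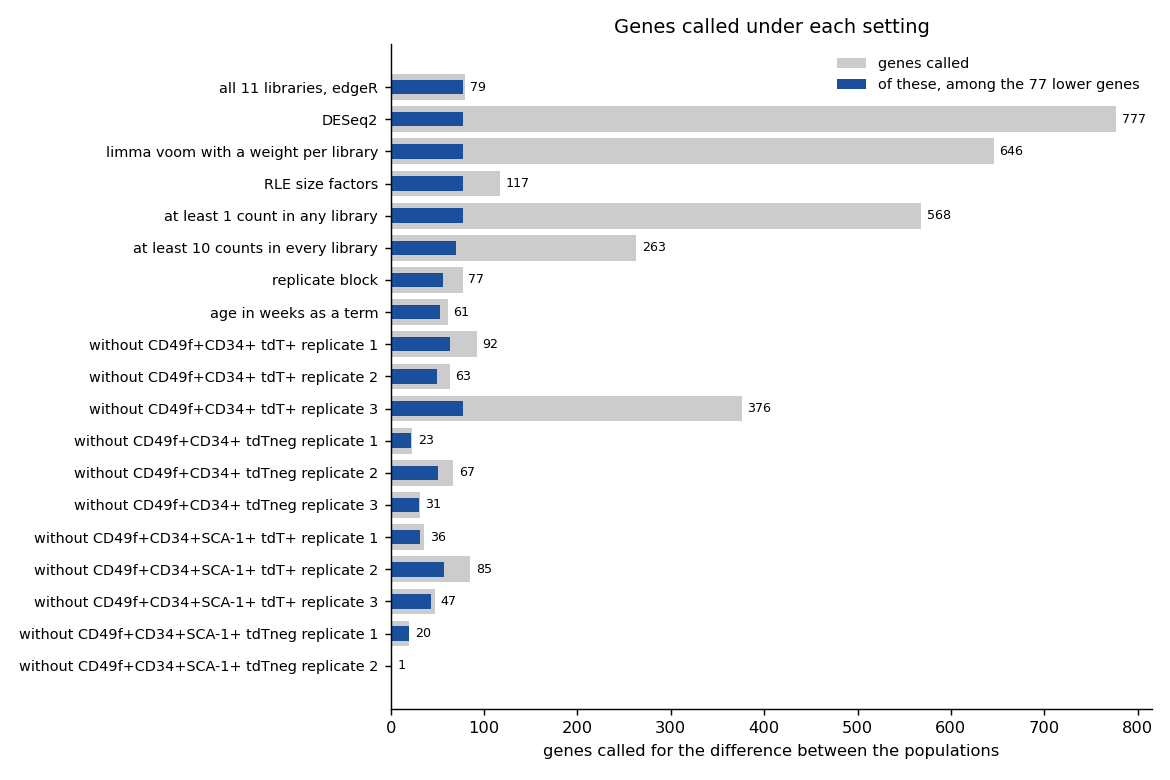
Number of genes called for the difference between the populations (grey bars, with the number beside each) and how many of these were among the 77 lower genes (blue bars), for the fit with all 11 libraries, for 7 other settings and for the omission of each library. The grey bars run from 1, without tdTnegCD49f+CD34+SCA-1+ replicate 2, to 777 with DESeq2, and the blue bars reach 77 in 6 of the 19 settings.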

How the data were processed

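RNA of sorted epidermal cells was sequenced in 11 libraries. The deposited files hold whole-number counts per gene, which the authors made with STAR and featureCounts on mm10 with the Ensembl release used for GENCODE M21, without normalization. The strand setting is not given in the sources used here, so overlapping genes on opposite strands cannot be told apart. All 55536 Ensembl IDs matched the annotation (GRCm38), and 1 further row stayed out of totals and tests. Groups and replicate numbers came from the labels, and another tdTnegCD49f+CD34+SCA-1+ library was not analysed here. Libraries of a group come from separate pools of 2 mice.

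The count test was that of edgeR 4.0.16 in R 4.3.3 (TMM factors, filterByExpr on the 4 groups, glmQLFit and glmQLFTest, 1 mean per group, all libraries in 1 fit). The difference between the populations was tested as the interaction contrast, and each population's effect as a contrast of the same fit. Genes were called at an adjusted p under 0.05 and an absolute log2 value over 1. DESeq2 1.42.0, limma 3.58.1 (voom with library weights), RLE size factors, other filters, no fold threshold, the replicate number or age as a term, fits within a population and omission of each library were alternatives. CPM are counts per 1000000 of the TMM-scaled totals. Tables and plots used Python 3.11.15, pandas 2.3.3, scipy 1.17.1 and matplotlib 3.10.9.

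The fits were tested on simulated data. Genes named were all called genes with a higher difference, the 20 called lower with the smallest p and a mean of at least 1 CPM, the sort genes and Cd4, genes called in CD49f+CD34+ cells, the called members of the 35 lists or up to 3 with the smallest p, and the 5 largest rises in CD49f+CD34+SCA-1+ cells that the difference did not pass. The result for 1 further called gene is not reported here. Others are said to be chosen after their values were seen or illustrate a list. The contrast, the rule and the lists were chosen with earlier results of these data known, so they are no independent evidence. P-values measure the spread between libraries.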

Additional observations from a re-analysis of the deposited data

Results flagged for a closer look

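The effect of tdT status differed between the 2 populations for 79 genes by the test of the difference itself, the interaction term of edgeR's fit with an adjusted p under 0.05. Among the named genes the log2 difference was positive for Adamtsl5 (1.48) and Lancl1 (1.15). It was negative for Cyp2d22 (-3.36), Hip1 (-2.28), Arhgap31 (-4.76), Lmcd1 (-4.11), Nrp2 (-4.19), Sema6a (-3.67), Kank3 (-2.94), Cyyr1 (-6.27), Sorbs2 (-5.48), Hoxd8 (-3.68) and Plpp1 (-2.85). It was also negative for Plekho2 (-2.51), Fzd4 (-4.91), Arrb1 (-2.21), Gfra1 (-2.54), Plpp3 (-2.67), Tcf7l1 (-2.94), Pros1 (-1.47), Sparc (-1.82), Rapgef5 (-1.86) and Acvrl1 (-2.92), and for Cd34 (-3.31), Plxna4 (-5.84), Itga5 (-2.39), Fstl1 (-2.81), Sox17 (-9.81), Adamts9 (-4.07), Lama4 (-2.22), Krt73 (-5.15) and Col4a2 (-2.96). The values of Adamtsl5, Lancl1, Sema6a, Cyyr1, Plekho2, Arrb1, Tcf7l1, Pros1, Sparc, Rapgef5, Fstl1 and Sox17 stand on an effect with an unadjusted p under 0.05 in both populations.

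The row outside the Ensembl genes, which no comparison used, stood above the tdTneg libraries, per 1000000 counts of the unscaled totals, at 133 and 252 in tdT+CD49f+CD34+ replicates 1 and 3 and at 254, 224 and 307 in tdT+CD49f+CD34+SCA-1+ replicates 1, 2 and 3. The library labelled replicate 2 of tdT+CD49f+CD34+ held 37 counts, 2.05 on the same scale, and the highest endothelial sum of the CD49f+CD34+ libraries. Groups of 2 and 3 libraries were not tested for a library that stands apart.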

How the results depend on the processing

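All 77 genes called lower stayed negative under each setting that held them, and no gene called for the difference changed sign. Among named genes that were not called, the difference of Cd3d (0.33) turned to -0.39 with limma voom and to -0.50 without tdT+CD49f+CD34+SCA-1+ replicate 2, that of Trac (0.49) to -0.43 without tdTnegCD49f+CD34+ replicate 1, and that of Xcl1 (0.79) to -0.39 without tdTnegCD49f+CD34+ replicate 3. For the difference, DESeq2 called 777 genes, limma voom 646, the fit with at least 1 count in any library 568 and that with at least 10 counts in every library 263, against 79. All 77 stayed called in the first 3 of these, and all 70 that were present in the last. RLE size factors called 117 and moved the median of all genes from 0.05 to -0.07, age as a term called 61 (53 of the 77 stayed), and no fold threshold gave 79. For the SCA-1+ population (470 genes) DESeq2 called 1126, voom 976, at least 1 count 885 and the 5 libraries alone 971. For the CD49f+CD34+ population (2 genes) DESeq2 called 332, voom 138, RLE size factors 5, at least 1 count 166, at least 10 counts 20, age as a term 0 and the 6 libraries alone 0. The causes of these changes were not tested. Omission of each library gave 1 to 376 genes for the difference, 97 to 700 for the SCA-1+ and 0 to 7 for the CD49f+CD34+ population.

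The replicate number as a block gave 77 genes for the difference (56 of the 77 lower genes stayed called), 404 for the SCA-1+ and 4 for the CD49f+CD34+ population, and Sox17 (-9.34), Lama4 (-2.21), Lancl1 (1.11), Krt73 (-4.77) and Col4a2 (-2.99) lost their call. Deviations of same-numbered libraries from their group means had a median correlation of 0.08 across genes (-0.42 to 0.59, 15 pairs). Over 30 other pairs it was -0.02. This check cannot decide whether same-numbered libraries share mice, since the deviations of the 2 tdTnegCD49f+CD34+SCA-1+ libraries mirror each other. The labels do not say so, while the paper describes 3 biological replicates, each with material from 2 male mice. The main fit treated libraries as independent, and only the block allowed for pairing.

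With 2 libraries in the smallest group and a common biological coefficient of variation of 0.61, the lack of a call does not show equal effects.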

Other observations

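In 3 of the upper hair follicle genes the negative difference was made mainly of a positive value in CD49f+CD34+ cells. Krt79, a keratin of the upper follicle duct, stood at 895, 444 and 1043 CPM in tdT+ and at 358, 203 and 257 CPM in tdTneg CD49f+CD34+ libraries, which did not overlap, while the 5 CD49f+CD34+SCA-1+ libraries all lay between 869 and 1031 CPM. Its effect was 1.54 in CD49f+CD34+ cells and 0.00 in the SCA-1+ population, with a difference of -1.54 (edgeR adjusted p = 0.192). Cst6, a protease inhibitor of the epidermis, had effects of 1.56 and -0.51 and a difference of -2.07 (adjusted p = 0.0911), and Gata6, a transcription factor of the follicle junction, 1.59 and -0.43 with a difference of -2.01 (adjusted p = 0.175). None of the 10 genes of the list was called, and the list's median difference was -1.28. At an unadjusted p under 0.05, 3 were lower (7.63% of all genes) and 1 was higher (4.77%).

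Among signals of the hair cycle, Hhip, an inhibitor of Hedgehog ligands, stood at 5.47 to 36.2 CPM in the 6 CD49f+CD34+ libraries, at 6.49 and 5.19 CPM in tdTneg and at 0.613, 0 and 0.0516 CPM in tdT+CD49f+CD34+SCA-1+ libraries. It was called in the SCA-1+ population (-4.50) and not for the difference (-5.62, edgeR adjusted p = 0.0941). Pdzrn3, a ubiquitin ligase gene of the secondary hair germ list, had effects of -2.25 in the SCA-1+ population, where it was called, and -0.39 in CD49f+CD34+ cells, with a difference of -1.86 (adjusted p = 0.0711). The immediate early and heat shock genes Dnajb1 (1.10, adjusted p = 0.203) and Jun (0.92, adjusted p = 0.263) did not pass.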
